A study of Mus musculus with 8 samples.

Results

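Opioid and cannabinoid receptors are the targets through which morphine-like drugs and cannabis act on pain, and sensory neurons of the dorsal root ganglion (DRG) carry several of them. Here 8 genes of this system were followed in mouse DRG after an injection of carrageenan, a seaweed polysaccharide that inflames the tissue. They were the 4 opioid receptor genes Oprm1 (mu), Oprd1 (delta), Oprk1 (kappa) and Oprl1 (nociceptin receptor), the peptide precursor genes Penk and Pdyn, the cannabinoid CB1 receptor gene Cnr1, and Rtp4, whose product is a chaperone. They were taken by gene symbol from the 24421 genes of the deposited count table, and all 8 were found there.

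The mice were C57BL/6J males at least 8 weeks old and labelled wild type. The 0d group was sampled before injection, and the 1d, 3d and 30d groups at 1, 3 and 30 days after 20 µL of 1% carrageenan had been injected under the skin of the left hind paw. All groups were perfused with an RNA preservative, after which ganglia of lumbar levels L3 to L5 were dissected, and the side taken is not given in the sources used here. There were 2 libraries per time point, each from RNA pooled from 2 to 3 mice, so a replicate is a pool and p-values measure the spread between pools. The groups therefore differ in time since injection and in having been injected at all, and a group that was injected with vehicle alone was not analysed here. All groups carry the same age label, so whether the 30d mice were older at sampling cannot be read.

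Although the labels speak of DRG neurons, the methods describe whole dissected ganglia, and the values were read as such. All 9 sensory neuron markers were present, with a summed level of 12880 to 13788 CPM (read counts scaled by library size) over the 8 libraries. Schwann cell markers summed to 5351 to 10668 CPM, satellite glia markers to 663 to 737 CPM and macrophage markers to 60.1 to 74.8 CPM. In such mixed tissue, fewer cells of a type and less RNA per cell cannot be told apart. The libraries held 44123208 to 73580338 counts, and replicates of 1 time point differed by a median of 0.0734 to 0.136 on the log2 scale over all tested genes.

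As background, opioid and cannabinoid receptors are G protein-coupled receptors that signal through the inhibitory Gi and Go proteins. In sensory neurons they are known to reduce calcium entry and the release of transmitter, and so to damp the signal that reaches the spinal cord. Their ligands are made locally: enkephalins are cut out of the Penk product and dynorphins out of the Pdyn product by enzymes that recognise pairs of basic amino acids. The receptors have to be carried to the cell surface, and RTP4, a receptor transporter protein, is known to assist the mu and delta receptors there. Rtp4 is also known as a gene that interferons switch on.

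In mm10 Oprm1 lies on the plus strand at chr10:6758593-7038209, Oprk1 on the plus strand at chr1:5588493-5606133, Oprl1 on the plus strand at chr2:181715016-181720985 and Oprd1 on the minus strand at chr4:132110726-132144486. Chromosome 4 also holds Cnr1 on the plus strand at chr4:33924632-33948831 and Penk on the minus strand at chr4:4133536-4138445. Pdyn lies on the minus strand at chr2:129686549-129699938 and Rtp4 on the plus strand at chr16:23609919-23614222.

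The kinship of the receptors is visible in the coding sequence around the DRY codons, the Asp-Arg-Tyr motif at the inner end of the third transmembrane helix that takes part in coupling to the G protein. The stretches are shown because they let the 4 receptors be compared base by base and show where their coding sequences differ. They are 60 bases long, on GENCODE vM21 transcripts with mm10 positions, and capitals mark the 32 bases that are identical in all 4 opioid receptors. In Cnr1, capitals mark the 18 bases that are identical to all 4.
Oprm1, chr10:6829069-6829128, plus strand: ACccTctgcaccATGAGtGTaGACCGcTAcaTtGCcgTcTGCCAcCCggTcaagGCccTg
Oprd1, chr4:132117225-132117284, minus strand: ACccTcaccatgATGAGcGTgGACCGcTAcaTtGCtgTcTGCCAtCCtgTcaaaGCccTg
Oprk1, chr1:5598774-5598833, plus strand: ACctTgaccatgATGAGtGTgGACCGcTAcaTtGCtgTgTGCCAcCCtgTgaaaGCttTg
Oprl1, chr2:181718561-181718620, plus strand: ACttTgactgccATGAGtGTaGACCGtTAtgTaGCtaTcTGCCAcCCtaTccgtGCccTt
Cnr1, chr4:33944232-33944291, plus strand: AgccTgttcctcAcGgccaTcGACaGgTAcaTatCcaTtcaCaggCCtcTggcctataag
Over the whole coding sequence, 63.6% to 70.2% of aligned bases were identical between 2 opioid receptors, with Oprm1 and Oprd1 the closest pair, and 56.8% to 62.7% between an opioid receptor and Cnr1. None of the 5 receptor transcripts shared a 50-base word with a transcript of another gene, nor did those of Pdyn and Rtp4. Only 1 principal transcript per gene was searched. For Oprm1 it held 1440 bases, beside a counted exonic length of 4600, and for Oprk1 1376 bases, beside 4707, so the rest was not searched. Penk shared 7.71% of its words with A830012C17Rik, which GENCODE vM21 places as a processed transcript on the plus strand, where its exons overlap 157 bases at the start of the Penk transcript. The deposited table has no row for that gene. Because reads were counted without regard to strand, reads of that neighbour in the overlap could have been counted for Penk. Oprm1 shared 1.48% of its exonic length with Ipcef1 on the other strand, and counting gave read pairs there to both genes.

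The peptide precursors are shown by the codons of their opioid cores, since the peptides that reach the receptors hold these cores. The Penk coding sequence held 6 copies of the Met-enkephalin core and 1 of the Leu-enkephalin core, and the Pdyn coding sequence 3 copies of the Leu-enkephalin core, with which the dynorphins begin. In the stretches of 27 bases, capitals mark the 5 core codons, and the 2 codons on either side are in lower case.
Penk, first copy, Met-enkephalin, chr4:4134328-4134354, minus strand: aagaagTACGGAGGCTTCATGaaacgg
Penk, copy 6, Leu-enkephalin, chr4:4133935-4133961, minus strand: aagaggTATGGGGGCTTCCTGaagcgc
Pdyn, first copy, Leu-enkephalin core, chr2:129688232-129688258, minus strand: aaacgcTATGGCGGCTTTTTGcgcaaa
Each of these 3 copies was flanked on both sides by a pair of codons for basic amino acids. Penk copies 4 and 7, which are not shown, had such a pair before the core but not after it. For Rtp4, 60 bases that hold 2 of its 4 pairs of Cys codons spaced by 2 codons are shown, with all 3 in-frame Cys codons in capitals (the middle one belongs to both pairs), because cysteines spaced in this way mark the zinc finger domain of the RTP family.
Rtp4, chr16:23612978-23613037, plus strand: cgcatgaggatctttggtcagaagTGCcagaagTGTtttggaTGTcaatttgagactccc

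Levels between genes were compared per kilobase of exon, as CPM divided by the exonic length (RPKM). At 0d Cnr1 stood highest with 7.86 ± 0.42 RPKM (SD, n = 2), followed by Penk with 6.80 ± 0.40 and Oprl1 with 6.34 ± 0.55 RPKM. Oprd1 had 4.88 ± 0.53, Oprm1 4.21 ± 0.29 and Rtp4 3.17 ± 0.10 RPKM. Oprk1 was far lower at 0.658 ± 0.029 RPKM, and Pdyn lowest at 0.0618 ± 0.0664 RPKM, from 2 and 17 counts in the 0d libraries. Among neighbours in this order, the 0d libraries of Penk and Oprl1 overlapped, and those of the other neighbouring pairs did not. Cnr1 stood above 55.5% of the tested genes at 0d, Oprm1 above 42.2% and Pdyn above 2.55%. At 1d the order changed at its top, where Rtp4 had 10.1 ± 1.2 RPKM and lay above each of the other 7 genes in both libraries. At 30d Rtp4, with 3.46 and 3.75 RPKM, overlapped with Oprm1, with 3.58 and 3.14 RPKM. All 8 genes passed the filter on low counts.

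**Figure D1:**
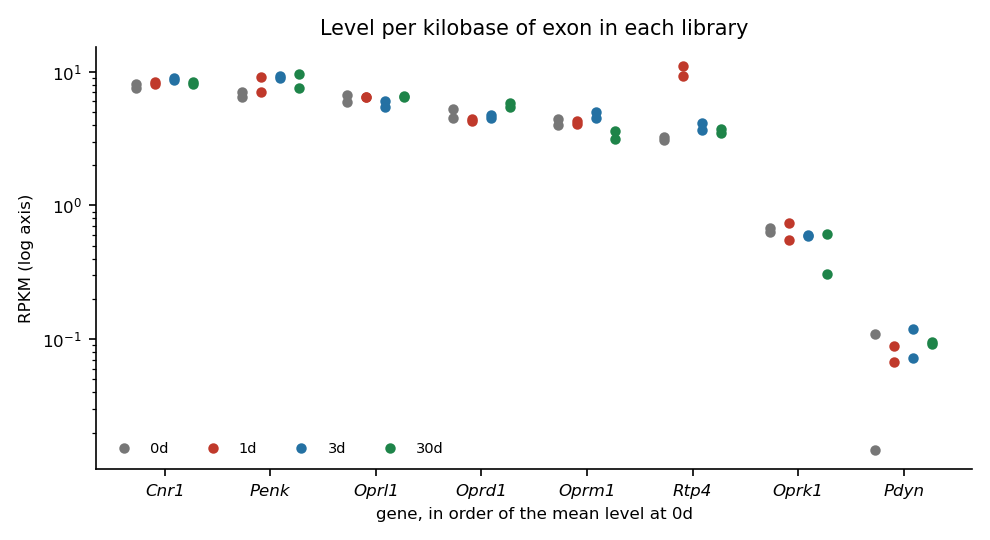
Level of each of the 8 genes in each library, in RPKM on a log axis, with genes in the order of their mean at 0d and 1 point per library (2 per time point). Oprk1 and Pdyn lie apart below the rest in every library, and Rtp4 stands highest of all genes at 1d, with a mean of 10.1 RPKM.

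Of the 8 genes, Rtp4 changed at 1d, Oprm1 differed between 30d and 3d, and no other gene passed the test in any of the 6 comparisons. At 1d against 0d, 1 of the 8 genes was called differentially expressed, beside 0.346% of the 17328 tested genes. A call here is a Benjamini-Hochberg adjusted p under 0.05 over all tested genes in edgeR's quasi-likelihood test, fitted to all 8 libraries. At 3d against 0d, 0 of the 8 were called, beside 0.219% of tested genes, and at 30d against 0d 0 of the 8, beside 0.0231%. At an unadjusted p under 0.05, 2 of the 8 passed at 3d, beside 5.94% of tested genes, and 3 of the 8 at 30d, beside 12.3%, and DESeq2 and limma-voom also called 0 in both comparisons. Between later time points, 1 of the 8 was called at 3d against 1d, beside 0.289% of tested genes, 1 at 30d against 3d, beside 0.935%, and 1 at 30d against 1d, beside 0.571%. The 3 comparisons with 0d share the 0d libraries.

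**Figure D2:**
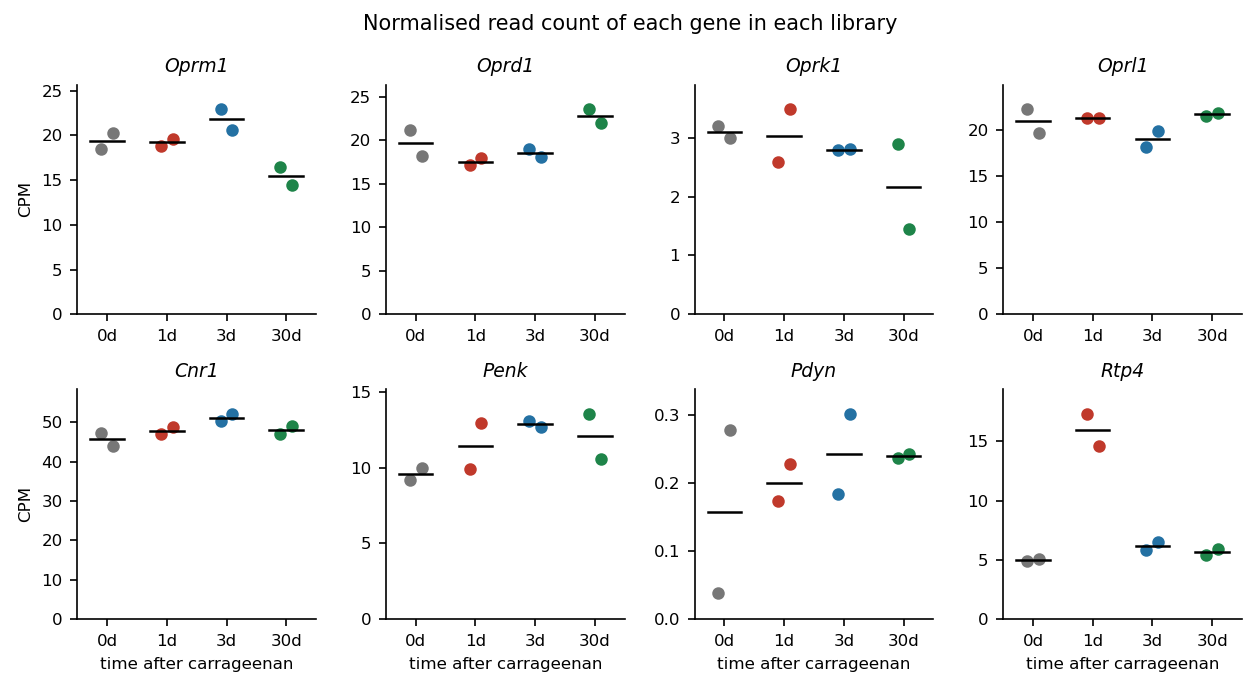
Normalised read count (CPM, axis from 0) of each gene in the 2 libraries of each time point, with a bar at their mean. Rtp4 is high in both 1d libraries, at 17.3 and 14.6 CPM, and Oprm1 is lowest in both 30d libraries, at 16.5 and 14.5 CPM.

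Rtp4 rose at 1d and fell again by 3d. Its normalised read counts were 4.88 and 5.10 CPM at 0d, 17.3 and 14.6 CPM at 1d, 5.81 and 6.54 CPM at 3d, and 5.44 and 5.90 CPM at 30d. Both 1d libraries lay above all 6 others, and the 3d and 30d libraries all lay above both 0d libraries, by little. The 1d level was 3.20 times that at 0d (95% interval 2.58 to 3.96), a log2 fold change of 1.68 ± 0.15 (SE, adjusted p = 3.05e-05, edgeR). This was the 6th smallest p of all tested genes in that comparison. From 1d to 3d Rtp4 fell by 1.37 on the log2 scale (SE 0.14, adjusted p = 0.000469), and between 1d and 30d by 1.49 (SE 0.14, adjusted p = 8.65e-05). At 3d its log2 difference from 0d was 0.31 with an interval of −0.0031 to 0.62 (adjusted p = 0.839), and at 30d it was 0.18 with an interval of −0.13 to 0.50 (adjusted p = 0.640), both in edgeR. All 3 calls of Rtp4 held under each of the 9 other settings and with each library left out, the highest adjusted p being 0.0487 at 3d against 1d without 3d replicate 1.

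The receptors that RTP4 is known to assist did not pass the test at 1d. The log2 fold change at 1d was −0.01 for Oprm1, with an interval of −0.23 to 0.21, and −0.16 for Oprd1, with an interval of −0.38 to 0.05. These intervals leave room for small changes but lie wholly under that of Rtp4, 1.37 to 1.99.

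The genes whose log2 CPM over the 8 libraries ran most like that of Rtp4 were Isg15 (Pearson's r = 0.986), Ddx60 (r = 0.985) and Ifit3b (r = 0.982), all known interferon-stimulated genes. These correlations are a description over 8 libraries, and were the highest among 17328 genes. In a list of 32 interferon-stimulated genes, edgeR called 22 higher at 1d and 0 lower, beside 0.346% of tested genes called. DESeq2 called 28 and limma-voom 22, and all 32 had a log2 fold change above 0 in edgeR. The median of the list was 1.03, against −0.0032 over all tested genes. Isg15, a ubiquitin-like protein, rose from 4.14 and 4.11 CPM to 17.7 and 16.2 CPM, a log2 fold change of 2.04 ± 0.14 (adjusted p = 3.39e-06, edgeR). Ifit1 and Ifit3, antiviral proteins that act together on viral RNA, rose by 1.68 and 1.74, and Oasl2 by 1.03 on the log2 scale. Only 7 of the 32 had a larger log2 fold change at 1d than Rtp4. At 3d, edgeR called 3 of the 32 higher than at 0d, beside 0.219% of tested genes. They were Ifit1 at 0.76, Oasl2 at 0.66 and Lgals3bp at 0.31 (DESeq2 also called Ifit3, and limma-voom did not call Lgals3bp). At 30d 0 were called by edgeR, DESeq2 or limma-voom, with 6 at an unadjusted p under 0.05, beside 12.3% of tested genes. In edgeR 21 fell between 1d and 3d, 27 between 1d and 30d and 6 between 3d and 30d. Over all tested genes, 0.289%, 0.571% and 0.935% were called in these comparisons. Of the 32, DESeq2 called 24, 28 and 7 there, and limma-voom 18, 24 and 3. The 6 that fell between 3d and 30d in edgeR were Ifit1, Ifit3, Irf7, Oasl2, Ddx58 and Lgals3bp. Of these, limma-voom called Ifit1, Oasl2 and Ddx58. Rtp4 did not pass between 3d and 30d, with a log2 difference of −0.12 (adjusted p = 0.764, edgeR). The list holds genes already known to move in these data, and its counts are no independent evidence for Rtp4.

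Markers of the cell types that a ganglion or its surroundings can hold were summed in 15 lists, with 61 markers tested. Macrophage markers, of which all 6 were in the table, summed to 65.5 to 67.1 CPM at 1d and 62.0 to 74.8 CPM at 0d, so that the 1d sums lay within the range of the 0d sums. T and B cell markers summed to 2.61 to 3.12 CPM at 1d and 2.04 to 3.36 CPM at 0d. In 7 of the 15 lists the sums of 1d and 0d did not overlap, while 31.9% of tested genes did not overlap between these groups.

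Of these 7 lists, 5 stood lower at 1d. Skeletal muscle markers summed to 17.2 to 35.8 CPM at 1d and 44.5 to 79.4 CPM at 0d, and Schwann cell markers to 7567 to 7618 CPM and 7795 to 10668 CPM. Satellite glia markers summed to 669 to 686 CPM at 1d and 720 to 724 CPM at 0d, but 2 of the 4 had a log2 fold change above 0. Among them Fabp7 stood at 148 and 176 CPM at 0d and at 90.9 and 83.2 CPM at 1d. Glul stood at 393 and 380 CPM at 0d and at 419 and 435 CPM at 1d. Endothelial markers summed to 67.3 to 67.4 CPM at 1d and 72.0 to 72.5 CPM at 0d, and large-fibre neuron markers to 386 to 395 CPM and 396 to 412 CPM. Higher at 1d were the markers of non-peptidergic nociceptors, at 1176 to 1202 CPM against 1078 to 1151 CPM, and of low-threshold C-fibre neurons, at 146 to 149 CPM against 123 to 141 CPM. Of the 61 markers, edgeR called 2 at 1d, and 6 had an unadjusted p under 0.05, beside 4.47% of tested genes. Myh1, a muscle myosin, fell by 1.47 on the log2 scale (SE 0.27, adjusted p = 0.0324, edgeR), and Lum, a matrix proteoglycan of fibroblasts, by 0.49 (SE 0.09, adjusted p = 0.0326). The 3 fibroblast markers summed to 722 to 766 CPM at 1d and 753 to 1036 CPM at 0d, which overlapped, and all 3 had log2 fold changes under 0. DESeq2 also called both Myh1 and Lum, and limma-voom called 0.

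From 1d to 3d, where Rtp4 fell, the sums of 9 of the 15 lists did not overlap, beside 37.6% of tested genes. Lower at 3d were macrophage markers (60.1 to 62.1 CPM), red blood cell markers (118 to 121 CPM against 167 to 171 CPM at 1d) and those of non-peptidergic nociceptors, low-threshold C-fibre neurons and spinal cord. Higher at 3d were Schwann cell markers (8838 to 8903 CPM), satellite glia markers (734 to 737 CPM), peptidergic nociceptor markers (1805 to 1831 CPM against 1545 to 1673 CPM at 1d) and fibroblast markers (772 to 777 CPM against 722 to 766 CPM at 1d). Some of these lists were mixed. Log2 fold changes stood above 0 in 3 of 4 satellite glia and 2 of 3 fibroblast markers. They also did in 1 of 6 macrophage, 1 of 4 non-peptidergic and 1 of 2 tested spinal cord markers. The macrophage marker Cx3cr1 fell by 0.75 (SE 0.15, adjusted p = 0.0476) and was the 1 marker called by edgeR, with 6 at an unadjusted p under 0.05, beside 4.24% of tested genes. DESeq2 called 4 (Cx3cr1, Calca, Tac1 and Lum) and limma-voom 0. From 1d to 30d the sums of 6 lists did not overlap, beside 40.03% of tested genes, 4 neuronal lists standing lower (general sensory, peptidergic, non-peptidergic and itch neurons) and those of fibroblasts and red blood cells higher. Of these lists, 2 of 9 general sensory and 2 of 3 fibroblast markers had a log2 fold change above 0. There 0 markers were called by edgeR or limma-voom, 3 by DESeq2 (Calca, Lum and Myh1), and 9 had an unadjusted p under 0.05 in edgeR, beside 11.7% of tested genes. The part of these markers in the Rtp4 result was not tested, and which cells held its RNA cannot be read from whole ganglia.

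**Figure D3:**
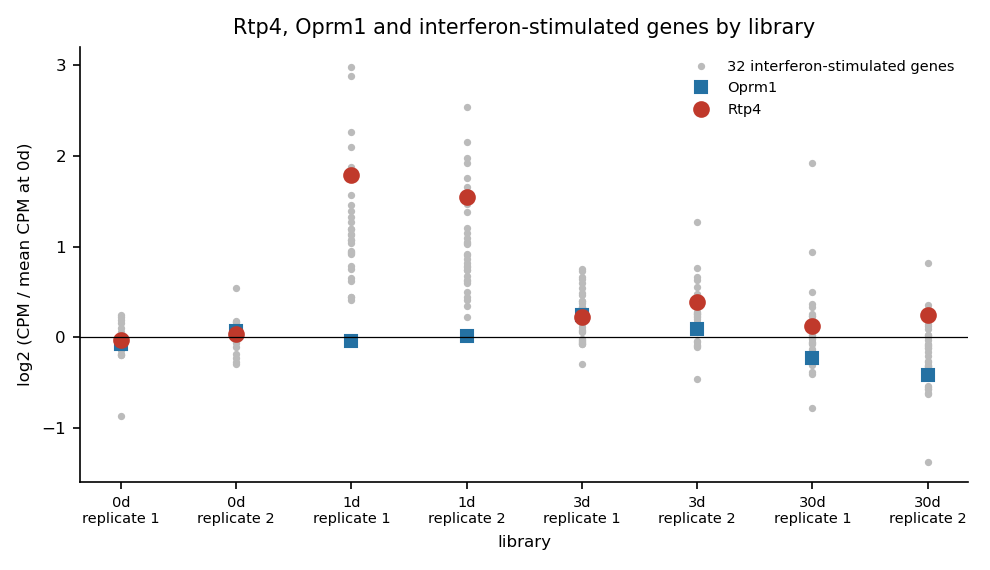
log2 ratio of the CPM in each library to the mean CPM at 0d, for Rtp4 (red circles), Oprm1 (blue squares) and 32 interferon-stimulated genes (grey points), in the 8 libraries. In the 1d libraries Rtp4 lies among the interferon-stimulated genes, with Oprm1 near 0.

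Rtp4 has 3 sister genes, Rtp1, Rtp2 and Rtp3, which assist odorant and taste receptors, and the REEP proteins are a further family that aids receptor traffic or shapes membranes. Rtp2 did not pass the filter, and Rtp1 and Rtp3 reached at most 0.228 and 0.573 CPM in any library. Of the 8 genes of this group that were tested, 0 were called against 0d at any time by edgeR, DESeq2 or limma-voom, with 0, 2 and 3 at an unadjusted p under 0.05 at 1d, 3d and 30d, beside 4.47%, 5.94% and 12.3% of tested genes. Reep1 fell between 3d and 30d by 0.18 on the log2 scale (SE 0.04, adjusted p = 0.0356, edgeR), and no other gene of the group was called by edgeR in any comparison. Their median log2 fold change at 1d was −0.0010, beside −0.0032 for all tested genes.

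Oprm1 encodes the mu receptor, the main target of morphine. Its counts were 18.4 and 20.3 CPM at 0d, 18.8 and 19.6 CPM at 1d, 22.9 and 20.7 CPM at 3d, and 16.5 and 14.5 CPM at 30d. Both 3d libraries lay above all others, and both 30d libraries below all others. Between 3d and 30d Oprm1 fell by 0.49 on the log2 scale (SE 0.10, 95% interval −0.71 to −0.28, adjusted p = 0.0326, edgeR), so that the 30d level was 0.710 times that at 3d. Against 0d the log2 difference was 0.17 ± 0.10 at 3d (adjusted p = 0.931) and −0.32 ± 0.10 at 30d (adjusted p = 0.234), neither past the threshold in edgeR. The call rested on few libraries: it was lost without 3d replicate 1 (adjusted p = 0.577), without 3d replicate 2 (0.193) and without 30d replicate 2 (0.122), with log2 fold changes between −0.40 and −0.57. It was also lost narrowly without robust estimation (0.0582) and when 3d and 30d were fitted alone (0.0563).

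Other genes moved with 3d. At 3d against 0d, where Oprm1 had its highest libraries, edgeR called 5 of the 61 cell type markers, and 12 had an unadjusted p under 0.05, beside 5.94% of tested genes. Calca, which encodes the neuropeptide CGRP and marks peptidergic nociceptors, the pain-sensing neurons that make neuropeptides, rose by 0.32 on the log2 scale (SE 0.05, adjusted p = 0.0237), and Scn10a, a sodium channel of nociceptors, by 0.22 (SE 0.04, adjusted p = 0.0499). Pvalb, a marker of large-fibre neurons, fell by 0.33 (SE 0.05, adjusted p = 0.0237), Cx3cr1 by 1.02 (SE 0.14, adjusted p = 0.00794) and Myh1 by 1.61 (SE 0.27, adjusted p = 0.0237). DESeq2 called the same 5, and limma-voom called Calca, Pvalb and Cx3cr1 but not Scn10a or Myh1.

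Between 3d and 30d, the comparison in which Oprm1 was called, edgeR called 3 of the 61 markers, and 19 had an unadjusted p under 0.05, beside 13.01% of tested genes. Calca fell by 0.43 (SE 0.05, adjusted p = 0.00201, edgeR) and Tac1, which encodes substance P, by 0.28 (SE 0.05, adjusted p = 0.0110), while Myh1 rose by 1.35 (SE 0.27, adjusted p = 0.0292). DESeq2 called 10, namely these 3, the neuronal markers Tubb3, Snap25, Scn10a, P2rx3 and Pvalb, the satellite glia marker Kcnj10 and Cx3cr1, and limma-voom called 3 (Calca, Tac1 and Tubb3). The log2 fold changes of P2rx3, a receptor channel of non-peptidergic nociceptors, and of Kcnj10 were −0.24 and −0.27, and those of Pvalb and Cx3cr1 were 0.21 and 0.56. Tubb3 stood at 2985 and 2962 CPM at 3d and lower at 30d, at 2635 and 2660 CPM. Scn10a stood at 1233 and 1216 CPM at 3d and lower at 30d, at 1131 and 1061 CPM. Snap25 stood at 1293 and 1301 CPM at 3d and higher at 30d, at 1381 and 1478 CPM.

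The sums of 9 of the 15 lists did not overlap between 3d and 30d, beside 46.4% of tested genes. The 4 peptidergic markers summed to 1493 and 1612 CPM at 0d, 1545 and 1673 CPM at 1d, 1805 and 1831 CPM at 3d, and 1468 and 1456 CPM at 30d. The 9 general sensory neuron markers summed to 13698 and 13523 CPM at 3d and to 12880 and 13104 CPM at 30d. Markers of itch neurons, Schwann cells (8838 to 8903 CPM at 3d, 5351 to 7580 CPM at 30d) and satellite glia (734 to 737 CPM at 3d, 663 to 683 CPM at 30d) were also lower at 30d. Higher at 30d were markers of macrophages (60.1 to 62.1 CPM at 3d, 66.8 to 70.02 CPM at 30d), red blood cells (118 to 121 CPM at 3d, 177 to 337 CPM at 30d), fibroblasts and spinal cord. All 6 macrophage markers and all 3 of red blood cells had log2 fold changes above 0. So had 1 of 3 fibroblast markers, 1 of 2 tested spinal cord markers, 1 of 4 satellite glia markers and 2 of 9 general sensory neuron markers. The fibroblast marker Dcn stood at 440 and 438 CPM at 3d and at 523 and 596 CPM at 30d. Col1a1 stood at 282 and 277 CPM at 3d and at 220 and 222 CPM at 30d.

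Set against the general sensory neuron markers, Oprm1 stood at 1.67 and 1.53 CPM per 1000 CPM of marker at 3d and at 1.28 and 1.10 CPM at 30d, with no overlap. Set against the peptidergic markers, it stood at 12.7 and 11.3 CPM per 1000 CPM at 3d and at 11.2 and 9.94 CPM at 30d, where the lower 3d library and the higher 30d library nearly met. The part of these markers in the Oprm1 result was not tested.

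**Figure D4:**
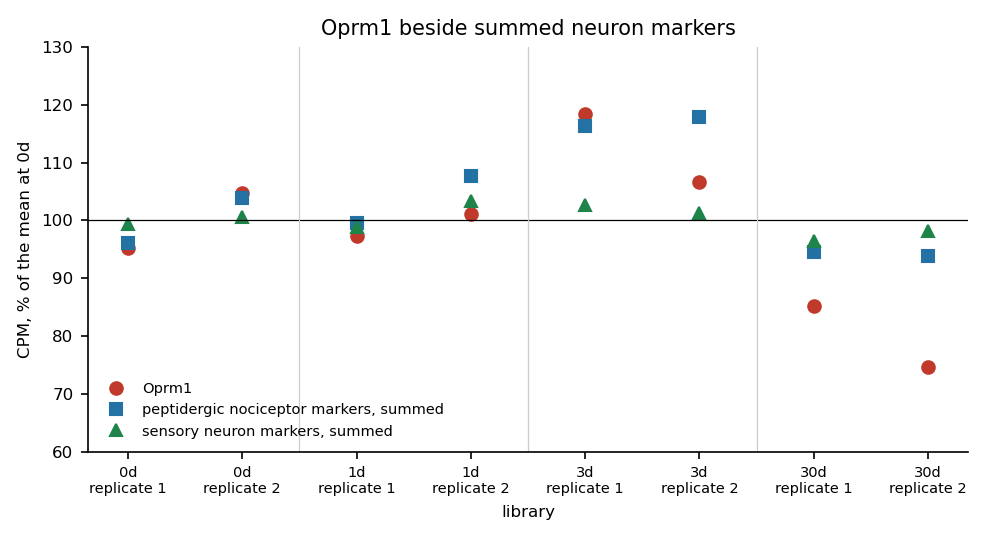
Oprm1 (circles), the sum of 4 peptidergic nociceptor markers (squares) and the sum of 9 sensory neuron markers (triangles) in each library, as CPM in percent of the mean at 0d. At 3d Oprm1 stands at 118% and 107% and the peptidergic markers at 116% and 118%; at 30d Oprm1 stands at 85.2% and 74.7% and the peptidergic markers at 94.5% and 93.8%.

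Over the 8 libraries the genes that ran most like Oprm1 were Ltv1 (r = 0.979), Sesn3 (r = 0.976) and Vapa (r = 0.971), given as a description.

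Oprd1, the delta receptor gene, had its highest levels at 30d, where Oprm1 had its lowest, but passed the threshold in no comparison. Its counts were 21.1 and 18.1 CPM at 0d, 17.1 and 17.9 CPM at 1d, 19.0 and 18.0 CPM at 3d, and 23.6 and 22.0 CPM at 30d. The 30d libraries lay above all others, and those of 1d below both 0d libraries. The largest differences were at 30d, with log2 values of 0.38 ± 0.10 against 1d (adjusted p = 0.140), 0.30 ± 0.10 against 3d (adjusted p = 0.186) and 0.22 ± 0.10 against 0d (adjusted p = 0.391), all in edgeR. Its nearest genes by correlation were Fdxr (r = 0.965), Gjb6 (r = 0.954) and Trip6 (r = 0.952).

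Oprl1, the nociceptin receptor gene, was the steadiest of the opioid receptors, with a coefficient of variation of 6.70% over the 8 libraries. Its counts were 22.3 and 19.7 CPM at 0d, 21.3 and 21.3 CPM at 1d, 18.2 and 19.9 CPM at 3d, and 21.6 and 21.9 CPM at 30d. The 3d group overlapped with 0d, and no comparison passed the test. The interval of its log2 fold change was −0.18 to 0.22 at 1d, −0.34 to 0.05 at 3d and −0.15 to 0.25 at 30d against 0d. Cma1 (r = 0.964), Nlrp1b (r = 0.943) and Rgl3 (r = 0.937) ran most like it.

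Oprk1, the kappa receptor gene, was measured with 101 to 205 counts per library and correspondingly less precision. Its levels were 3.19 and 3.00 CPM at 0d, 2.59 and 3.49 CPM at 1d, 2.79 and 2.80 CPM at 3d, and 2.90 and 1.44 CPM at 30d. A single 30d library lay far below the other 7. The log2 fold change at 30d against 0d was −0.52 with an interval of −1.15 to 0.11 (adjusted p = 0.495, edgeR). Without 30d replicate 2 it was −0.096, and without 30d replicate 1 it was −1.10 (adjusted p = 0.0840). Pmch (r = 0.984), Dhodh (r = 0.983) and Itfg2 (r = 0.981) ran most like it over the libraries.

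Cnr1 encodes the CB1 receptor, the main cannabinoid receptor of neurons. It had the highest counts and the tightest spread of the 8 genes, with 47.4 and 43.9 CPM at 0d, 46.9 and 48.8 CPM at 1d, 50.2 and 52.1 CPM at 3d, and 47.1 and 49.0 CPM at 30d, a coefficient of variation of 5.12%. Both 3d libraries lay above all others. The log2 difference at 3d was 0.17 ± 0.06, with an unadjusted p of 0.0194 and an adjusted p of 0.672 in edgeR. At 1d its interval was −0.07 to 0.21 and at 30d −0.06 to 0.21. Slc2a1 (r = 0.967), Plk5 (r = 0.951) and Ism2 (r = 0.947) ran most like it. Of 13 further genes of the endocannabinoid system, which make, break down or sense these lipids, 0 were called by edgeR in any of the 6 comparisons, with at most 1 at an unadjusted p under 0.05 in each, beside 4.24% to 13.01% of tested genes. DESeq2 called 1 of them, Abhd4, at 30d against 0d, where limma-voom called 0. Mgll, whose product breaks down 2-arachidonoylglycerol, stood at 112 to 124 CPM over the libraries, and Faah, whose product breaks down anandamide, at 23.7 to 28.7 CPM. Cnr2, the cannabinoid receptor of immune cells, stood at 0.300 to 0.863 CPM.

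Penk, the enkephalin precursor gene, had its lowest library at 0d and its highest at 30d. Its counts were 9.20 and 10.0 CPM at 0d, 9.90 and 12.97 CPM at 1d, 13.1 and 12.7 CPM at 3d, and 13.6 and 10.6 CPM at 30d. The 3d and 30d libraries lay above both 0d libraries, and the 1d group overlapped with them. The log2 difference from 0d was 0.25 ± 0.15 at 1d, 0.42 ± 0.15 at 3d and 0.33 ± 0.15 at 30d, with adjusted p of 1.00, 0.573 and 0.392 in edgeR. At 3d that was 1.34 times the 0d level, with an interval of 1.08 to 1.67, before any correction for the number of genes. Tmem138 (r = 0.953), Tlr13 (r = 0.952) and Sec24c (r = 0.949) ran most like it.

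Pdyn, the dynorphin precursor gene, was close to the limit of detection. It had 2 and 17 counts at 0d, 8 and 10 counts at 1d, 12 and 22 counts at 3d, and 14 and 17 counts at 30d, or 0.0378 to 0.301 CPM. The 0d libraries spanned the widest gap of any time point, and the other groups lay within or near it. The interval of the log2 fold change at 3d against 0d was −1.34 to 2.53. With the 0d library of 2 counts left out the log2 fold change was −0.19, and with that of 17 counts left out it was 2.62. Its nearest genes were 4933417D19Rik (r = 0.979), Cd22 (r = 0.961) and 9530082P21Rik (r = 0.955).

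**Figure D5:**
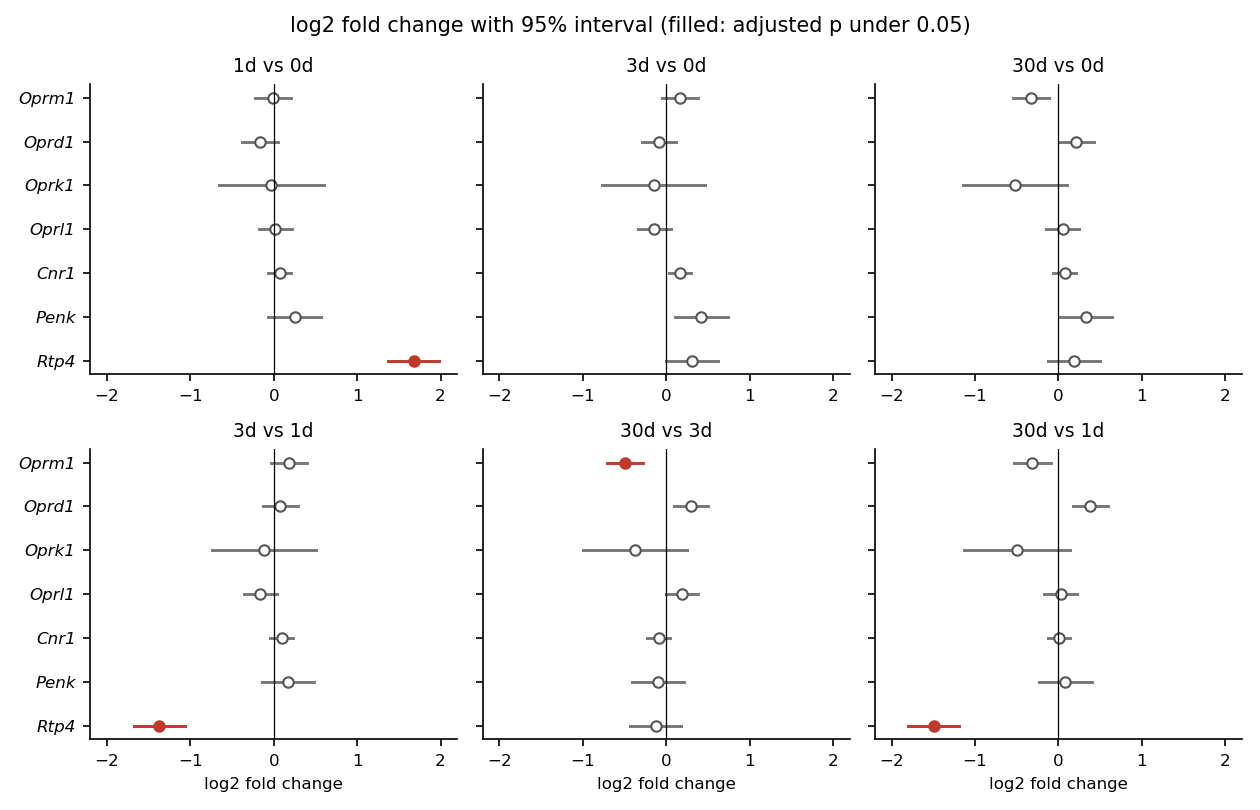
log2 fold change (points) with its 95% interval (lines) for 7 of the 8 genes in the 6 comparisons, with calls filled in red. Pdyn is left out because its intervals run past the axis. Rtp4 is called in the 3 comparisons that involve 1d, where its points stand at 1.68, −1.37 and −1.49, and Oprm1 at 30d against 3d.

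Few genes of the machinery around the peptides and receptors passed the test. Of 13 genes for other opioid precursors, for the enzymes that cut precursors and for the peptidases that break enkephalins down, 0 were called by edgeR against 0d at any time, with 1, 2 and 0 at an unadjusted p under 0.05 at 1d, 3d and 30d and 0 by DESeq2 or limma-voom. The shares of tested genes at that unadjusted p were 4.47% at 1d, 5.94% at 3d and 12.3% at 30d. Ctsl, a lysosomal protease also known to act on proenkephalin, fell between 3d and 30d by 0.25 on the log2 scale (SE 0.05, adjusted p = 0.0266, edgeR). In that comparison 4 of the 13 had an unadjusted p under 0.05, beside 13.01% of tested genes. DESeq2 and limma-voom also called Ctsl there, and DESeq2 alone called it at 30d against 1d. Pomc and Pnoc, the other opioid precursor genes, stood at 0.307 to 0.775 CPM and 0.215 to 0.985 CPM, while Pcsk2, a convertase that cuts at paired basic residues, stood at 255 to 271 CPM.

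Of 19 tested genes for the signalling partners of these receptors, namely Gi and Go subunits, GIRK channels, arrestins, receptor kinases, RGS proteins and calcium channels, 1 was called by edgeR in any comparison. At 1d and 30d against 0d, 0 were called by edgeR, DESeq2 or limma-voom, with 3 at an unadjusted p under 0.05 each time, beside 4.47% of tested genes at 1d and 12.3% at 30d. At 3d against 0d, 4 of the 19 had an unadjusted p under 0.05, beside 5.94% of tested genes. Arrb1, which encodes beta-arrestin 1 and ends receptor signalling at the surface, had 387 and 398 CPM at 0d, 440 and 432 CPM at 1d, 464 and 463 CPM at 3d, and 401 and 377 CPM at 30d. It rose at 3d against 0d by 0.24 on the log2 scale (SE 0.04, adjusted p = 0.0243, edgeR) and fell between 3d and 30d by 0.25 (SE 0.04, adjusted p = 0.00888). DESeq2 and limma-voom made both calls too, and DESeq2 alone also called Arrb1 at 30d against 1d. Both 3d libraries lay above all others, as they did for Oprm1 and Cnr1. The median log2 fold change of the 19 genes was 0.051 at 1d, 0.071 at 3d and 0.022 at 30d against 0d, beside −0.0032, −0.0021 and −0.00040 over all tested genes.

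Over the 8 genes, the median log2 fold change was 0.046 at 1d, 0.17 at 3d and 0.13 at 30d against 0d, beside the same medians over all tested genes. The groups did not overlap for 2, 5 and 5 of the 8 genes at 1d, 3d and 30d, beside 31.9%, 39.5% and 39.6% of all tested genes.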

How the data were processed

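RNA from mouse DRG was sequenced in 8 libraries, 2 each at 0d, 1d, 3d and 30d. According to the submitters' notes and the methods, reads were trimmed with cutadapt 2.10, aligned to mm10 with STAR 2.7.5a and assigned to UCSC genes with featureCounts 2.0.1, as read pairs, without strand, with overlapping genes each counted and reads that map to several places left out. The authors deposited raw counts per gene and the exonic length, without normalization. Genes were filtered with filterByExpr (17328 of 24421 kept) and scaled by TMM in edgeR 4.0.16 (R 4.3.3), and 6 comparisons were tested with the quasi-likelihood F-test on all 8 libraries, with Benjamini-Hochberg adjustment over all tested genes. CPM and RPKM are TMM-scaled, and correlations used log2 CPM with a prior count of 2. Standard errors were derived from the F statistic as |log2 fold change|/√F. Alternatives were other normalizations, filters and fits, DESeq2 1.42.0, limma-voom (limma 3.58.1) and each library left out. The fits were tested on simulated counts.

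The members and gene lists were chosen with earlier results of these data known. All 8 members are named. Of each list, genes past the threshold in any comparison are named, at most 4 by smallest p. Lgals3bp, Irf7, Ddx58, genes called by DESeq2 or limma-voom alone and list genes given for their level alone were added after their values were seen. For each member the 3 genes of highest correlation are named. Grk2 and Grk3 were counted under their older symbols Adrbk1 and Adrbk2. Sequences come from the GENCODE vM21 principal transcript of each member, and the promoters and proteins were not used here.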

Additional observations from a re-analysis of the deposited data

Results flagged for a closer look

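Differences between later time points passed the test for 2 of the 8 genes, which means that the difference from 0d was itself different between those times. For Rtp4 the log2 fold change was −1.37 at 3d against 1d and −1.49 at 30d against 1d, with both 1d libraries above all others. For Oprm1 it was −0.49 at 30d against 3d, with both 3d libraries above and both 30d libraries below all others. With 2 libraries per time point, which of the 2 stands apart cannot be told from the group alone, and this was not tested.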

How the results depend on the processing

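The number of the 8 genes called was recomputed under 9 other settings and with each of the 8 libraries left out, where the lone library of a time point was assumed to vary like the other groups. It stayed the same in 5 of the 6 comparisons. At 30d against 3d it fell from 1 to 0 without robust estimation and when the compared groups were fitted alone, and ranged from 0 to 1 with a library left out. Of 807 log2 fold changes recomputed for single genes, 780 kept their direction and side of the threshold, 5 (all Oprm1 at 30d against 3d) lost the call and 22 changed sign. None of those 22 had been called. Away from left-out libraries, these were Pdyn at 30d against 3d under limma-voom (0.010) and under the replicate block (0.042). With a library left out, sign changes occurred at 1d against 0d in Oprm1 (range −0.077 to 0.059), Oprk1 (−0.26 to 0.17), Oprl1 (−0.065 to 0.11) and Pdyn (−0.46 to 2.34). Against 0d they also occurred at 3d in Oprd1 (−0.19 to 0.030) and Pdyn (−0.19 to 2.62), and at 30d in Oprl1 (−0.037 to 0.14) and Pdyn (−0.21 to 2.60). At 3d against 1d they occurred in Oprk1 (−0.32 to 0.11), Penk (−0.0092 to 0.38) and Pdyn (−0.12 to 0.58), at 30d against 3d in Oprk1 (−0.96 to 0.050), Penk (−0.28 to 0.073) and Pdyn (−0.33 to 0.37), and at 30d against 1d in Penk (−0.11 to 0.28) and Cnr1 (−0.025 to 0.033).

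Replicate numbers shared by the groups mark no common animals, and deviations of same-numbered libraries correlated between −0.0144 and 0.0438, so the numbers do not pair the libraries. With the replicate block, Oprm1 at 30d against 3d stayed called (log2 fold change −0.49), and the same number of the 8 genes was called in each comparison, while the count over all genes rose from 4 to 69 at 30d against 0d, from 50 to 77 at 3d against 1d and from 99 to 159 at 30d against 1d.

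Counts over all tested genes moved more, from 60 to between 26 and 111 at 1d, from 38 to between 1 and 121 at 3d and from 4 to between 0 and 202 at 30d against 0d. They moved from 50 to between 5 and 260 at 3d against 1d, from 162 to between 12 and 525 at 30d against 3d, and from 99 to between 51 and 359 at 30d against 1d. Depth was lowest for Pdyn, with 2 to 22 counts per library.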
